A study of Mus musculus with 6 samples.

Results

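Genes of the transforming growth factor beta (TGF-beta) and bone morphogenetic protein (BMP) pathway were examined in mammary tumours with and without an endotrophin transgene. The list held 41 genes: ligands, the proteins that store and process them, receptors, Smad proteins, inhibitors and target genes. Its members were taken by gene symbol, older synonyms included, so that Ctgf was found under its current symbol Ccn2. Of the 41 genes, 38 had a named probe and 34 were bright enough on the array to be tested, among 12864 tested genes in all.

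All 6 tumours came from 12-week-old female mice of the FVB (pure) strain that carried the MMTV-PyMT transgene. This transgene places the polyoma middle T oncoprotein under a promoter of mouse mammary tumour virus, active in mammary epithelium. The 3 samples labelled PyMT control carried it without the endotrophin transgene, and the 3 labelled PyMT/ETP (PyMT/C5) carried both. Endotrophin is the fragment released from the carboxyl end of the collagen VI alpha 3 chain. The labels give neither the promoter of the endotrophin transgene nor the number of founder lines, and they do not say whether each sample was a separate mouse. The p-values therefore measure the spread between these samples, which may be technical. The comparison asks whether tumours with added endotrophin differ in the transcripts of this pathway.

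Ligands of the TGF-beta family are secreted as dimers and bind a complex of type I and type II receptor kinases. TGF-beta itself is stored in the matrix in a latent form, tethered by latent TGF-beta binding proteins. TGF-beta and activin receptors phosphorylate Smad2 and Smad3, BMP receptors phosphorylate Smad1 and Smad5, and both kinds join Smad4 to regulate genes in the nucleus. In mammary tumours TGF-beta restrains the division of epithelial cells, promotes their change towards a mesenchymal state and activates fibroblasts. The Id genes, which encode inhibitors of basic helix-loop-helix transcription factors, are among the best known BMP targets.

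Levels are given as log2 of the background-corrected probe intensity plus 16, on Illumina bead arrays, and a difference is the mean of PyMT/ETP minus the mean of PyMT control. On this scale a probe counted as above background on an array over 4.61, and levels of different probes cannot be set against each other. The number of arrays limits the precision. Col6a3, the source gene of endotrophin, had no named probe, and the transgene was therefore not checked by these data. The luminal epithelial markers were above background on all 6 arrays for each of their 9 tested genes, among them Krt8, Krt18 and Elf5. Over the 5 tested genes of skin keratinocytes, the mean deviation reached 1.59 in PyMT control replicate 3, while the other 5 tumours ranged from -0.73 to 0.39.

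Promoters are shown for 3 Id genes, which are BMP targets, and for Bmp4, the member nearest to the threshold of the test. Each line holds the 250 bases before the RefSeq gene start (build GRCm38.p6), 5′ to 3′ on the gene's strand. Capitals mark the Smad-binding letters GTCT, read on both strands and so also as AGAC, and the palindrome GGCGCC, a GC-rich form found in BMP-responsive promoters. The motifs do not overlap each other.
Id2: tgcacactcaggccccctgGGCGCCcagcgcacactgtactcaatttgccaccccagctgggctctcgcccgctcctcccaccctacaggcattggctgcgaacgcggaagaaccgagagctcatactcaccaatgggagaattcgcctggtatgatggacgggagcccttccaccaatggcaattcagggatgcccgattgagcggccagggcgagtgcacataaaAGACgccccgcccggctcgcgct
Id3: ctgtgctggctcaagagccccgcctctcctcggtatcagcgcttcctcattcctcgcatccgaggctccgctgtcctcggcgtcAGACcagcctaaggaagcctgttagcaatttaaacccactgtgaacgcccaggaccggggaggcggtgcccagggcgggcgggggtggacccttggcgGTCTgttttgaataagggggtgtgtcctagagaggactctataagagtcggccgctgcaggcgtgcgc
Id4: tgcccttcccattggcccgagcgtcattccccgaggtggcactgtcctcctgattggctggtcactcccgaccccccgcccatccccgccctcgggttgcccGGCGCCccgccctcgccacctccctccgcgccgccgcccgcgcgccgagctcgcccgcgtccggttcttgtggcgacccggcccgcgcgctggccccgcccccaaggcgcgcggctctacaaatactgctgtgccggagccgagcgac
Bmp4: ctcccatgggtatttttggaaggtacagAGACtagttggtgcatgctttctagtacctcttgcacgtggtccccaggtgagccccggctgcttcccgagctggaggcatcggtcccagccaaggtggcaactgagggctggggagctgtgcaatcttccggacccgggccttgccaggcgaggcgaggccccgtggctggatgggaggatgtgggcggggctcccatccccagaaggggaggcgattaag

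The Id2 window lies at chr12:25096093-25096342 on the minus strand and holds 1 GTCT and 1 GGCGCC. The Id3 window lies at chr4:136143572-136143821 on the plus strand and holds 2 GTCT and 0 GGCGCC. The Id4 window, at chr13:48260866-48261115 on the plus strand, holds 0 GTCT and 1 GGCGCC. The Bmp4 window, at chr14:46390670-46390919 on the minus strand, holds 1 GTCT and 0 GGCGCC. Of 32851 promoter windows of this length in the RefSeq table, 82.9% hold GTCT and 9.6% hold GGCGCC. These matches describe letters in a window and do not show binding. The table had entries for 27 of the 41 genes, and Id1 was not among them.

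No tested gene of the pathway passed the threshold in the comparison of the 2 groups. In limma's test, adjusted by Benjamini-Hochberg over all tested genes, the adjusted p of each member was at least 0.997. Of 34 members 0 passed the threshold of 0.05, as did 0 of 12864 genes, or 0%. At an unadjusted p under 0.05 there were 2 members, the ligands Bmp4 and Bmp7, both with lower means in PyMT/ETP tumours. That is 5.88% of the tested members, beside 4.31% of all tested genes, of which 2.28% were higher and 2.04% lower in PyMT/ETP tumours. The groups did not overlap for 3 members, or 8.82%, beside 8.19% of all tested genes. Tgfbr1 was the 1 member higher without overlap, beside 4.54% of all genes, and Bmp4 and Id4 were the 2 lower ones, beside 3.65% of all genes. The shares in either direction together were near those of all genes.

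The differences were small for most members. The median log2 difference was -0.05 over the 34 tested members and 0.0041 over all genes tested. It was positive for 15 members and negative for 19, while 50.8% of all genes were positive and 49.2% negative. The size of the difference was under 0.25 log2 units for 24 of the 34 members, beside 10402 of all 12864 genes, a larger share. Its median was 0.15 over the members and 0.12 over all genes. It was at least 0.5 for 4 members, Bmp7, Bmp4, Smurf1 and Id4, a size that 3.26% of all genes reached. For all 34 members the difference was smaller than the range of values in at least 1 of the groups, as it was for 96.3% of all genes. The 95% confidence interval of the difference lay within a 2-fold change in either direction for 29 of the 34 members, and for 94.9% of all genes. The 5 members whose interval reached further were Bmp7, Smurf1, Id4, Bmp4 and Inhba.

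**Figure D1:**
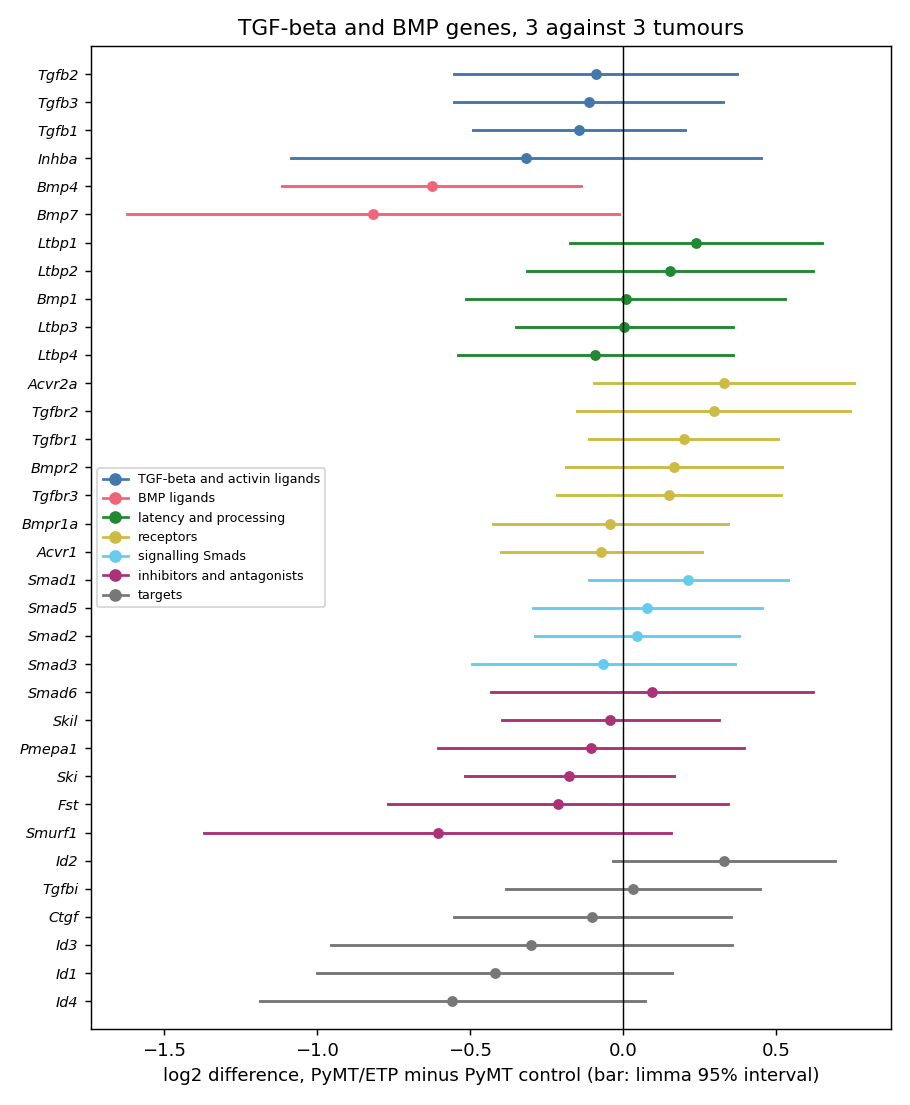
Log2 difference between PyMT/ETP and PyMT control tumours (x axis, log2 units) for each of the 34 tested genes (y axis), coloured by role, with limma's 95% confidence interval as a bar. The intervals of Bmp4 and Bmp7 lie below 0 before any adjustment, and the intervals of all other genes shown include 0.

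Among the TGF-beta and activin ligands, 4 of 5 genes were tested, 0 passed, and all 4 had negative differences of at most 0.32 log2 units in size. Tgfb1, the most studied ligand of the family, was at 7.17, 7.23 and 7.25 in the control tumours and at 7.32, 6.92 and 6.98 in PyMT/ETP replicates 1, 2 and 3. Its highest and its lowest values were both in PyMT/ETP tumours, so the groups overlapped. The log2 difference was -0.14 (SE 0.15), and its interval ran from 0.712-fold to 1.15-fold.

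Tgfb2 was at 8.03, 8.22 and 8.28 in control and at 8.40, 8.19 and 7.66 in PyMT/ETP tumours, a log2 difference of -0.09 (SE 0.20). Tgfb3, a ligand whose transcript is known to be abundant in involuting mammary gland, was at 10.02, 10.17 and 10.45 in control and at 10.23, 10.32 and 9.75 in PyMT/ETP tumours. Its log2 difference was -0.11 (SE 0.19). In both genes PyMT/ETP replicate 3 was the lowest of the 6 tumours, and without that array the differences were 0.12 and 0.06. Neither Tgfb2 nor Tgfb3 differed by more than the spread between replicates. PyMT/ETP replicate 3 also had the lowest summed intensity of the fibroblast markers, 10 tested of 10, at 3683 against 4430 to 7537 in the other 5 tumours. The basal markers were lowest there too, at 6807 against 9286 to 15789. PyMT/ETP replicate 1, where Tgfb2 was highest, had the highest fibroblast sum but a basal sum of 9286. Tgfb3 was highest in PyMT control replicate 3, where the fibroblast sum was 4590 and the basal sum 15789. The part of these cells in the Tgfb2 and Tgfb3 values was not tested.

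Inhba, which encodes the subunit of activin A, varied most among the members within a group. It was at 4.68, 6.23 and 5.42 in control replicates 1, 2 and 3 and at 4.95, 5.25 and 5.17 in PyMT/ETP tumours. The control tumours spanned both sides of the PyMT/ETP tumours. Its SD was 0.77 in control and 0.15 in PyMT/ETP tumours (n = 3 each), and it was the only tested member with an SD of at least 0.75 in a group, a size reached by 2.35% of all genes. Its log2 difference was -0.32 (SE 0.34), and without PyMT control replicate 2 it was 0.08. Inhbb, the subunit of activin B, had no named probe.

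The BMP ligands held the 2 members nearest to the threshold, and both had lower means in PyMT/ETP tumours. Bmp4, a ligand made by the mesenchyme of the embryonic mammary bud, was at 5.35, 5.20 and 5.85 in control and at 4.53, 5.04 and 4.96 in PyMT/ETP tumours. The groups did not overlap, with control replicate 3 the highest and PyMT/ETP replicate 1 the lowest of the 6. The log2 difference was -0.63 (SE 0.21), or 1.54-fold lower by group means, and limma's unadjusted p was 0.0179 (0.997 after adjustment). Its size depended on the background treatment: with no background correction it was -0.19, at limma's unadjusted p of 0.0603, and with an offset of 50 it was -0.32. Bmp4 was dim: PyMT/ETP replicate 1 was not above background, and the gene was left out under the stricter background limit. Its other probe was not above background on any array.

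Bmp7, a ligand made by epithelia, was at 5.92, 5.90 and 7.03 in control and at 5.21, 6.06 and 5.12 in PyMT/ETP tumours. The groups overlapped, since PyMT/ETP replicate 2 exceeded control replicates 1 and 2, and control replicate 3 stood above the other 5 tumours. The log2 difference was -0.82 (SE 0.35), the largest in size among the members, and limma's unadjusted p was 0.0471 (0.997 after adjustment). With no background correction the difference of Bmp7 was -0.34, at limma's unadjusted p of 0.0747, and with an offset of 50 it was -0.52. Without PyMT/ETP replicate 1 it was -0.69 and without PyMT/ETP replicate 3 it was -0.65. A second, dimmer Bmp7 probe was at 4.81, 4.88 and 4.84 in control tumours and was at or below the background limit in all 3 PyMT/ETP tumours. It met the filter through the control tumours alone, which fixed its direction, so it adds no separate support. Its p adjusted over all probes was 0.9997 in limma's test. Bmp2 had 1 probe, which was not above background on any array.

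Bmp4 and Bmp7 were both highest in PyMT control replicate 3, the tumour that also had the most skin keratinocyte and basal RNA. The keratinocyte genes, 5 tested of 9 listed, had negative differences for all 5. Their summed corrected intensity was 673, 853 and 2727 in control and between 505 and 546 in PyMT/ETP tumours. The basal and myoepithelial genes, 7 tested of 9, had negative differences for 5, and their sum ranged from 10105 to 15789 in control and from 6807 to 11578 in PyMT/ETP tumours. Without control replicate 3 the log2 difference of Bmp7 was -0.44, at an unadjusted p of 0.161, and that of Bmp4 was -0.43, at an unadjusted p of 0.0613. The part of these cells in the Bmp4 and Bmp7 values was not tested. In bulk tumour RNA, fewer cells of a type and less RNA per cell cannot be told apart.

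**Figure D2:**
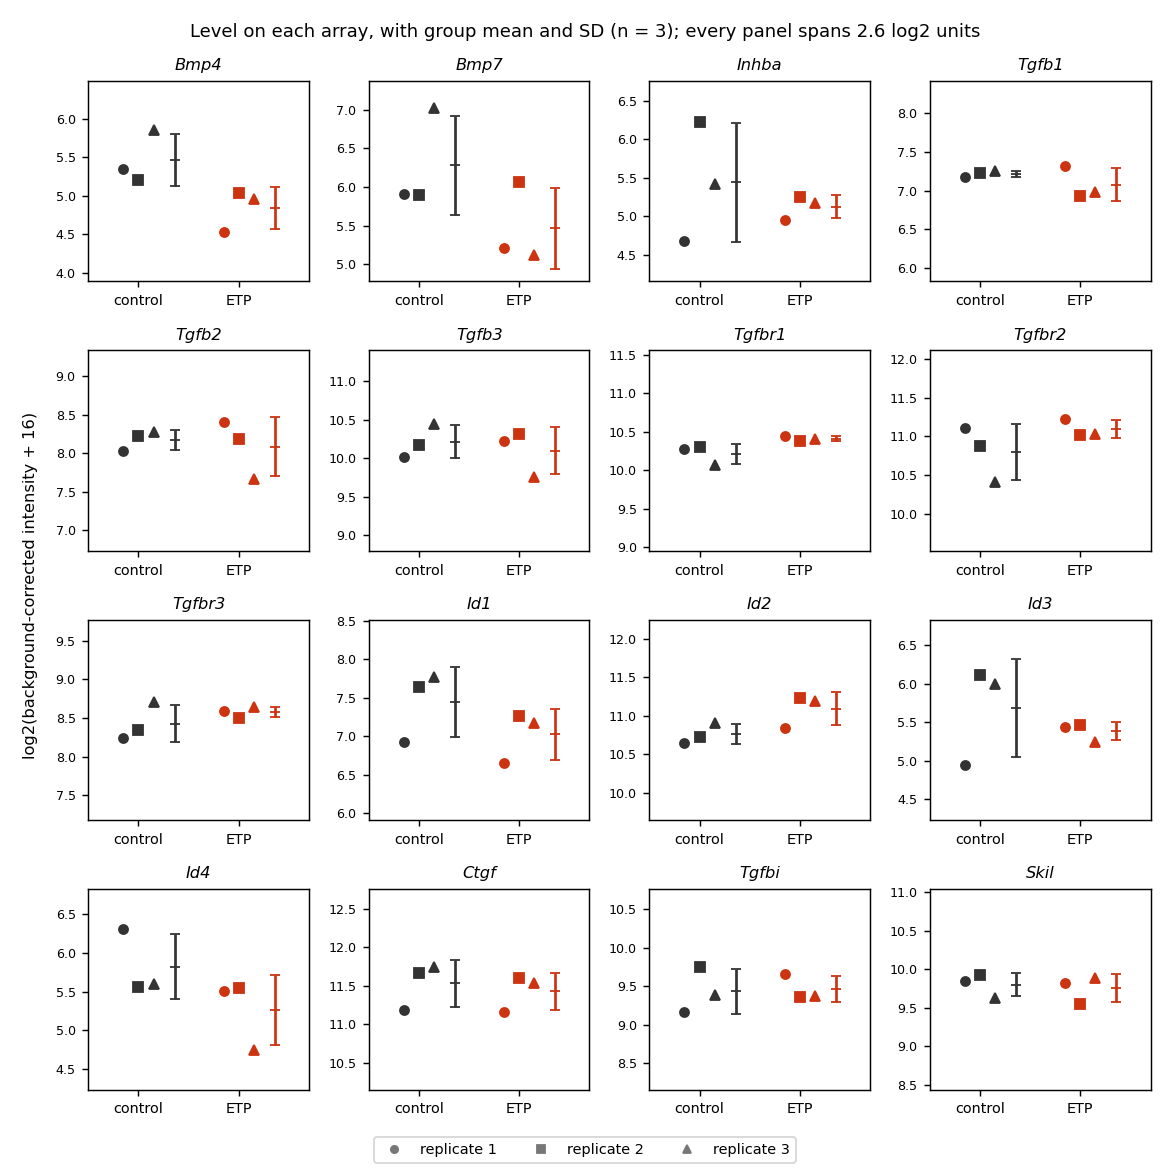
Level of 16 pathway genes on each array (y axis, log2 of background-corrected intensity plus 16) in PyMT control (black) and PyMT/ETP tumours (red), with 1 symbol per replicate number and the group mean and SD (n = 3) beside the points. All panels have the same height in log2 units; only Bmp4, Id4 and Tgfbr1 show groups that do not overlap.

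The proteins that store and process the ligands showed differences of at most 0.24 log2 units in size, and 0 of 5 passed. Ltbp1, which tethers latent TGF-beta to fibrillin and fibronectin fibres, was at 7.69, 7.66 and 7.37 in control and at 7.92, 8.01 and 7.50 in PyMT/ETP tumours, a log2 difference of 0.24 (SE 0.18). Ltbp3 and Ltbp4, which also bind latent TGF-beta, had log2 differences of 0.0031 (SE 0.16) and -0.09 (SE 0.20). Ltbp2, a fibrillin-binding relative that does not bind latent TGF-beta, was above background in 1 of 3 control and 3 of 3 PyMT/ETP tumours and had a log2 difference of 0.15 (SE 0.20). Bmp1 is no ligand but the procollagen C-proteinase, which also cleaves Ltbp1. Its log2 difference was 0.0088 (SE 0.23).

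The receptors had mostly positive differences, 5 of 7, and none passed. Tgfbr1, the type I TGF-beta receptor kinase, was at 10.28, 10.30 and 10.07 in control and at 10.45, 10.38 and 10.41 in PyMT/ETP tumours. Its groups did not overlap, and control replicate 3 was the lowest. On the log2 scale the difference was 0.20 (SE 0.14), and its interval ran from 0.926-fold to 1.42-fold. The other tested Tgfbr1 probe overlapped between the groups, with a log2 difference of 0.13.

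Tgfbr2, the type II receptor that binds the ligand first, was at 11.11, 10.88 and 10.40 in control and at 11.23, 11.02 and 11.03 in PyMT/ETP tumours. Control replicate 3 was the lowest of the 6, and control replicate 1 exceeded PyMT/ETP replicates 2 and 3. Its log2 difference was 0.30 (SE 0.20), and without control replicate 3 it was 0.10. Tgfbr3, or betaglycan, the coreceptor that presents TGF-beta2, was at 8.24, 8.34 and 8.70 in control and at 8.59, 8.503 and 8.64 in PyMT/ETP tumours, a log2 difference of 0.15 (SE 0.16). Without control replicate 1 the difference of Tgfbr3 was 0.06, and as the mean of its 2 tested probes it was -0.03.

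Acvr2a, a type II receptor for activins, was at 5.28, 5.49 and 4.82 in control and at 5.55, 5.57 and 5.46 in PyMT/ETP tumours. It had the largest positive difference of the members, 0.33 (SE 0.19), but this rank depended on the background treatment. With no background correction Acvr2a had 0.10 and with an offset of 50 it had 0.17, while Id2 had 0.32 in both. The difference of Acvr2a was 0.14 without control replicate 3. That tumour was the lowest of the 6 for Acvr2a, Tgfbr1, Tgfbr2 and Bmpr2. Bmpr2, the type II BMP receptor, had a log2 difference of 0.17 (SE 0.15), and the type I BMP receptors Bmpr1a and Acvr1 had -0.04 (SE 0.17) and -0.07 (SE 0.14). Among the cell type markers, 8 of the 10 fibroblast genes and 8 of the 9 tested macrophage genes, of 10 listed, also had positive differences. The fibroblast sum ranged from 4430 to 5543 in control and from 3683 to 7537 in PyMT/ETP tumours, and the macrophage sum from 7124 to 7530 and from 7054 to 9322. Their part in the receptor values was not tested.

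The signalling Smads differed little between the groups, and 0 of 4 tested passed. Smad1, which carries the BMP signal, had a log2 difference of 0.21 (SE 0.14), and Smad5, its close relative, one of 0.08 (SE 0.16). Smad2 and Smad3, which carry the TGF-beta and activin signal, had 0.04 (SE 0.15) and -0.06 (SE 0.19). Their intervals lay between 0.71-fold and 1.45-fold for all 4. As the mean of its 2 tested probes Smad5 had a log2 difference of -0.10. Smad4, the shared partner, had no named probe.

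Of the inhibitors and antagonists, 6 of 10 were tested, 0 passed and 5 had negative differences. Smurf1, a ubiquitin ligase that targets BMP Smads and receptors, had the largest of these. It was at 5.59, 6.55 and 6.14 in control and at 4.78, 5.79 and 5.89 in PyMT/ETP tumours. PyMT/ETP replicate 1 was the lowest of the 6, and control replicate 1 lay below the other 2 PyMT/ETP tumours. For Smurf1 the log2 difference was -0.61 (SE 0.34), and without PyMT/ETP replicate 1 it was -0.25. With no background correction it was -0.23. The other 2 tested Smurf1 probes had log2 differences of -0.21 and 0.09, and the mean of all 3 probes gave -0.24.

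Ski and Skil, corepressors that bind Smad complexes, had log2 differences of -0.18 (SE 0.15) and -0.04 (SE 0.16). Skil, a gene that TGF-beta induces, was at 9.85, 9.92 and 9.63 in control and at 9.83, 9.55 and 9.89 in PyMT/ETP tumours, and the groups overlapped. Pmepa1, a TGF-beta-induced membrane protein that holds back Smad2 and Smad3, had -0.10 (SE 0.22). Fst, the activin-binding protein follistatin, had -0.21 (SE 0.24) and 0.0029 without PyMT control replicate 3, where it was highest. Smad6, an inhibitory Smad of the BMP branch, had 0.09 (SE 0.23).

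The other inhibitors gave no comparison. Smad7, the inhibitory Smad that TGF-beta induces, was at 4.61, 4.17 and 4.15 in control and at 4.26, 4.18 and 4.26 in PyMT/ETP tumours, above background in control replicate 1 only. Grem1, a secreted BMP antagonist, was above background in control replicate 2 only, at 5.38. The pseudoreceptor Bambi was not above background on any array. Smurf2 had no named probe.

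**Figure D3:**
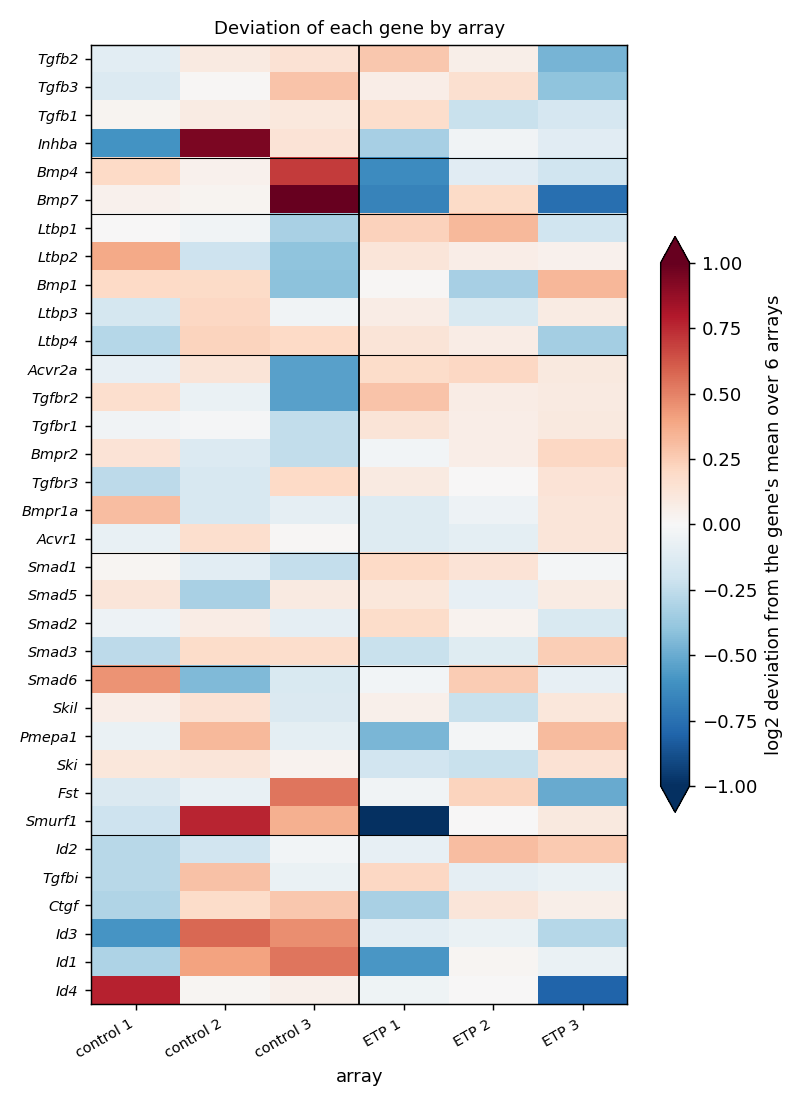
Deviation of each of the 34 tested genes from its own mean over the 6 arrays (colour, log2 units, ends of the scale at -1 and 1), by array (x axis) and ordered by role (y axis, horizontal lines between roles). Among the strongest colours are single tumours: Bmp7 in control replicate 3, Inhba in control replicate 2, Smurf1 in PyMT/ETP replicate 1 and Id4 in control replicate 1 and PyMT/ETP replicate 3.

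The 6 target genes went both ways, with 4 negative and 2 positive differences, and 0 passed. Ctgf, a matricellular protein induced by TGF-beta, was at 11.18, 11.66 and 11.75 in control and at 11.16, 11.60 and 11.54 in PyMT/ETP tumours. The replicate 1 tumours of both groups were the lowest, and the log2 difference was -0.10 (SE 0.20). Tgfbi, a matrix protein named for its induction by TGF-beta, was at 9.17, 9.74 and 9.38 in control and at 9.66, 9.36 and 9.38 in PyMT/ETP tumours, a log2 difference of 0.03 (SE 0.18). The intervals of these TGF-beta targets ran from 0.682-fold to 1.28-fold for Ctgf and from 0.767-fold to 1.37-fold for Tgfbi.

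Of the 4 Id genes, Id1, Id3 and Id4 had negative differences and Id2 a positive one. Id1 was at 6.93, 7.64 and 7.77 in control and at 6.65, 7.26 and 7.17 in PyMT/ETP tumours. Control replicate 1 lay among the PyMT/ETP tumours, and the log2 difference was -0.42 (SE 0.25). Id3 was at 4.95, 6.11 and 5.999 in control and at 5.43, 5.47 and 5.25 in PyMT/ETP tumours, a log2 difference of -0.30 (SE 0.29). Here too control replicate 1 stood apart from the other controls and was the lowest of the 6 tumours.

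Id4 was at 6.31, 5.56 and 5.60 in control and at 5.50, 5.55 and 4.74 in PyMT/ETP tumours. Its groups did not overlap, but 2 control and 2 PyMT/ETP tumours were close together, with control replicate 1 above and PyMT/ETP replicate 3 below them. Its log2 difference was -0.56 (SE 0.28), and with no background correction it was -0.20. It was -0.31 without control replicate 1 and -0.30 without PyMT/ETP replicate 3. A second, dimmer Id4 probe overlapped between the groups, at 4.42, 4.63 and 5.01 in control and at 4.69, 4.44 and 4.31 in PyMT/ETP tumours. As the mean of both tested probes, Id4 overlapped too. Id2 was at 10.65, 10.73 and 10.90 in control and at 10.84, 11.24 and 11.19 in PyMT/ETP tumours, a log2 difference of 0.33 (SE 0.16). PyMT/ETP replicate 1 lay below control replicate 3, so the groups overlapped, and without PyMT/ETP replicate 1 the difference was 0.45. The promoter windows above of Id2 and Id4 both hold GGCGCC, and a link between this motif and the differences was not tested.

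The choice of tumours weighed on most of these values. For 31 of the 34 members, leaving out 1 array turned the sign of the difference or changed its size by more than 1.5 times. The exceptions were Smad1, Id2 and Bmp4, of which Bmp4 changed by more than that with the background treatment. The sign held in all 6 such fits for 17 members, among them Bmp4, Bmp7, Id1, Id2, Id3, Id4, Tgfbr1 and Tgfbr2. Neither count was made over all genes, so neither sets these members apart from other genes.

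PyMT control replicate 1 mattered most for the counts. Without it, 8 of 34 members had an unadjusted p under 0.05, or 23.5%, beside 6.27% of all genes, and the groups did not overlap for 14 members, or 41.2%, beside 22% of all genes. Of the 8, the means of Bmp4, Bmp7, Id1, Id3, Inhba and Smurf1 were lower in PyMT/ETP tumours and those of Tgfbr2 and Ltbp2 were higher. Without control replicate 1 the Ltbp2 probe met the filter through the PyMT/ETP tumours alone. That fixed its direction, so its place among the 8 and the 14 adds no support. The log2 differences of Id1 and Id3 were then -0.68 and -0.67, and that of Inhba was -0.70. Over the fits without 1 of the other 5 arrays, Id1 ranged from -0.54 (without PyMT/ETP replicate 2) to -0.23 (without PyMT/ETP replicate 1). In these fits Id3 ranged from -0.34 (without PyMT/ETP replicate 2) to -0.09 (without PyMT control replicate 2). Inhba ranged from -0.38 to 0.08 with the same 2 arrays left out. Of the members 0 passed, limma's adjusted p being at least 0.514, while 16 of all genes passed. With each of the other 5 arrays left out, between 0 and 3 members had an unadjusted p under 0.05. That is at most 8.82% of the members, beside between 3.12% and 5.17% of all genes.

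The adipocyte markers, 4 tested of 8, were also lowest in control replicate 1. Their summed corrected intensity was 164 there, 692 and 436 in control replicates 2 and 3, and 534, 370 and 167 in PyMT/ETP tumours. The endothelial markers, 10 tested of 10, summed to 1159 in control replicate 1 and to between 1151 and 1458 in the other tumours. PyMT/ETP replicate 3, with an adipocyte sum close to that of control replicate 1, was at 7.17 for Id1, 5.25 for Id3 and 5.17 for Inhba. Control replicate 1 was at 6.93, 4.95 and 4.68. Id1 was lowest in PyMT/ETP replicate 1, at 6.65, where the adipocyte sum was 534. The part of these cells in the low Id1, Id3 and Inhba values of control replicate 1 was not tested.

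**Figure D4:**
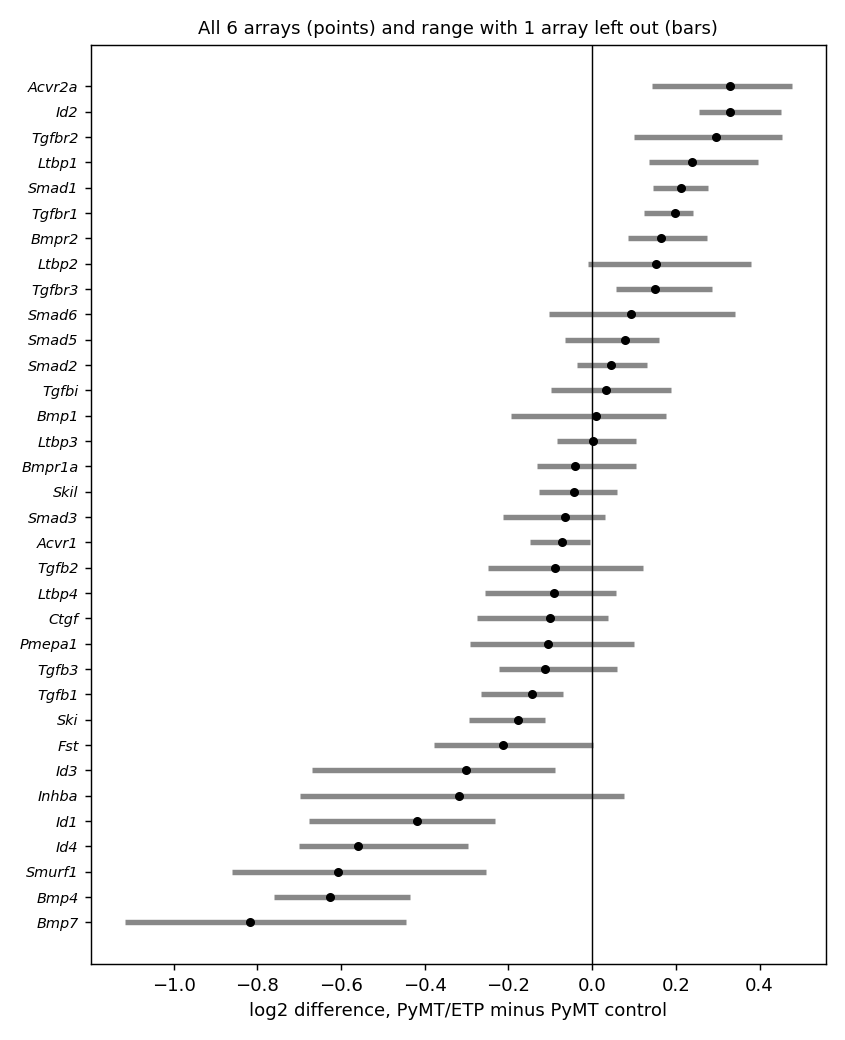
Log2 difference between PyMT/ETP and PyMT control tumours (x axis, log2 units) for the 34 tested genes (y axis), with all 6 arrays as points and the range of the 6 fits that leave out 1 array as bars. The bars of 17 genes stay on 1 side of 0, and the bars of the other 17 genes cross it.

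Other genes of the pathway, 60 in a second list, gave the same outcome. Of these, 55 had a named probe and 42 were tested. None passed, 0 of 42 had an unadjusted p under 0.05, beside 4.31% of all genes, and limma's adjusted p was at least 0.997. The median log2 difference was 0.02, beside 0.0041 over all genes, with 22 positive and 20 negative, and none reached 0.5 in size. The smallest p belonged to Acvr1b, the type I activin receptor, at 5.81, 5.54 and 5.97 in control and at 5.98, 6.09 and 6.40 in PyMT/ETP tumours. Its groups did not overlap, and the log2 difference was 0.38 (SE 0.17). Usp9x, a deubiquitinase that acts on Smad4, had 0.33 (SE 0.16), also without overlap, but was dim, at 4.84 to 5.51. These 2 were the only genes of the list without overlap, or 4.76% of the 42, beside 8.19% of all genes.

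Next by p came Acvrl1, a type I receptor of endothelial cells, with a log2 difference of 0.31 (SE 0.20). The integrin chains Itgb6 and Itgb8, whose integrins release TGF-beta from its latent complex, followed with 0.22 (SE 0.15) and -0.22 (SE 0.16). Bmpr1b, a type I BMP receptor, was the last of the 6 genes named by p, with 0.30 (SE 0.22). In each of these 4 genes the PyMT control and PyMT/ETP tumours overlapped.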

How the data were processed

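Per the labels' protocols, tumour RNA was extracted with Trizol, treated with DNase and made into biotinylated cRNA for Illumina arrays. The authors deposited a linear probe intensity for each of 45281 probes on 6 arrays. Neither the software nor the normalization is given in the sources used here. When sorted, the deposited values agreed between arrays within 0.185, which is what normalization to a common distribution leaves, and they had not been freed of background. A table from before normalization was not used: its 24 value columns name only a chip and a position, which no label pairs with samples. Batches by chip could therefore not be tested.

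The background, with mode 86.09 and SD 4.832, was estimated from the lowest 60% of the pooled values. The normexp model of limma was applied with these parameters, 16 was added and log2 taken, which understates the fold changes of dim genes. A probe was tested (24893 probes) if it exceeded 94.04, the background's 5% limit, on at least 3 arrays. The stricter limit was 97.34, its 1% limit, on all 6 arrays. Of the probes, 34885 had 1 gene symbol in the platform annotation, 18 had several and 10378 had none, and 34807 were matched to RefSeq. A gene was represented by its brightest tested probe. Groups came from the sample titles and the comparison used limma 3.58.1 in R 4.3.3 (lmFit, eBayes, two-sided, Benjamini-Hochberg over all 12864 genes, threshold 0.05). An exact permutation test of 3 samples against 3 has a smallest p of 0.1 and was not used. The fit was tested on simulated data.

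The members, the second pathway list, the marker lists and the tests were chosen with earlier results of these data known. Values per array were given for members with an unadjusted p under 0.05, for non-overlapping members with a difference of at least 0.25, for members with an SD of at least 0.75, and for the TGF-beta ligands, the TGF-beta receptors, Smad7, Skil and the targets. Those of Ltbp1, Acvr2a and Smurf1 were added after their values were seen. From the second list, the 6 genes of smallest p were named. Replicate numbers are shared by the groups, but no label says that they pair tumours. Deviations from the group means of same-numbered tumours correlated at -0.06, -0.06 and -0.11 over genes, so the numbers were not treated as pairs.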

Additional observations from a re-analysis of the deposited data

How the results depend on the processing

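Other background treatment, offset, filters, normalization, probe choice and a replicate block left 0 members and 0 genes passing. Leaving out 1 array gave 0 members and from 0 to 16 genes, the 16 without PyMT control replicate 1, and a median log2 difference of the members from -0.11, without that array, to 0.0057, without PyMT control replicate 2. Of 234 member values under the 7 other settings, 232 kept their sign. The exceptions were Tgfbr3 (-0.029) and Smad5 (-0.10) as the mean of all tested probes. Sizes moved more: the difference was over 1.5 times smaller for 12 members with no background correction and for 10 with offset 50, among them Bmp4, Bmp7, Id4 and Smurf1 in both. With no background correction Id2 was the 1 member at an unadjusted p under 0.05, in place of Bmp4 and Bmp7. That is 2.94% of the members, beside 3.25% of all genes. The mean of all tested probes moved 13 members by over 1.5 times or turned them. At the stricter limit 30 members were tested and Bmp4, Id4, Inhba and Ltbp2 were not. The number of arrays and, for these dim genes, signal near background limit what can be seen.

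With 1 array left out, the log2 difference crossed 0 for 17 members. It ran from -0.25 to 0.12 for Tgfb2, from -0.22 to 0.0596 for Tgfb3, from -0.037 to 0.13 for Smad2, from -0.21 to 0.031 for Smad3, from -0.064 to 0.16 for Smad5 and from -0.10 to 0.34 for Smad6. It ran from -0.13 to 0.0601 for Skil, from -0.010 to 0.38 for Ltbp2, from -0.084 to 0.11 for Ltbp3, from -0.26 to 0.056 for Ltbp4, from -0.29 to 0.099 for Pmepa1 and from -0.70 to 0.075 for Inhba. For Tgfbi it ran from -0.099 to 0.19, for Ctgf from -0.27 to 0.037, for Bmp1 from -0.19 to 0.18, for Bmpr1a from -0.13 to 0.10 and for Fst from -0.38 to 0.0029. The cause was not tested.

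With the replicate number as a block, 4 members, Bmp4, Id1, Id4 and Smurf1, had an unadjusted p under 0.05, in place of 2, beside 3.87% of all genes. The adjusted p of the members was then at least 0.998 in limma's test, and the block changed no call. The median log2 difference of the members with the replicate block was -0.05.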

Other observations

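Probes other than the brightest were tested for 21 of the 34 members, 33 probes in all. Of these, 25 had a difference of the same sign as the brightest probe of the gene, or 75.8%, beside 55.7% for such probes of all genes. All other probes shared the sign for 13 members, among them Bmp7, Id2, Id4, Tgfbr1, Tgfbr2 and Ctgf. For Bmp7 that probe met the filter through the control tumours alone, so its sign was fixed by the filter. A dim Smad1 probe was at 4.59, 4.80 and 4.52 in control and at 5.43, 5.59 and 4.88 in PyMT/ETP tumours. Its groups did not overlap, its log2 difference was 0.66 and limma's p adjusted over all probes was 0.9997. It was above background in 1 control tumour, and was chosen after its values were seen. The brightest Smad1 probe had a log2 difference of 0.21, and another dim one had -0.23.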
